A study of Mus musculus with 6 samples.

Results

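The liver makes most plasma proteins, and a set of them changes in amount when tissue is injured or inflamed. The 34 genes described here came from a list of acute-phase and other secreted plasma proteins with a few close companions. Serpins and complement were left out. The list and its classes were chosen with earlier results of these data known. All 34 were found by symbol among the 45706 rows of the deposited count table, and all passed the filter on low counts. They comprised 24 genes usually raised in an acute-phase response (positive reactants), 5 usually lowered (negative reactants) and 5 with no fixed class. Poly(A) RNA was sequenced from 6 mouse liver samples, of which 3 are labelled wild type (here WT 1, WT 2 and WT 3) and 3 ENTPD-8 knockout (here KO 1, KO 2 and KO 3). The gene's product, NTPDase8, is a surface enzyme that degrades extracellular nucleotides, and the series asks about its part in liver ischemia. The mice were kept under specific-pathogen-free conditions at Charles River. Strain, age, sex, the knockout allele and the cells it affects are not stated, nor is whether these livers had been made ischemic or each came from its own mouse. The p-values accordingly rest on the variation among these 6 samples, which may be partly technical.

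The acute-phase response is driven in hepatocytes by interleukin-6, acting through the receptor subunit gp130 and the transcription factor STAT3, and by interleukin-1 and TNF, acting through NF-kappa-B and C/EBP factors. Serum amyloid A, orosomucoid, haptoglobin and fibrinogen are classic positive reactants, and albumin, transthyretin, transferrin, retinol-binding protein and fetuin-A are classic negative ones. Hepcidin, the iron hormone, answers both to interleukin-6 and to bone morphogenetic proteins, and metallothioneins answer to zinc and glucocorticoids.

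Total counts ran from 32768764 to 46473522 per library. Entpd8 had 1416, 876 and 2034 counts in the 3 wild-type libraries and only 15, 29 and 52 in the 3 knockout ones, which fits the labels. Levels are given as CPM, counts scaled to a common library size with TMM factors, and differences are log2 fold changes of knockout over wild type from edgeR's quasi-likelihood test, with p-values adjusted by Benjamini-Hochberg over the 14069 genes tested. The ± beside a log2 fold change is its SE. A gene is said to have risen or fallen where its adjusted p was under 0.05. In whole liver, fewer cells of a type and less RNA per cell cannot be told apart.

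Most positive reactants had less transcript in knockout liver, by up to several-fold, and the negative reactants showed no such common fall. Of the 24 positive reactants, 15 fell and 1, the transcription factor gene Cebpd, rose. Of the 5 negative reactants, Rbp4 rose and the other 4 did not pass. The share of all genes tested that fell was 10.6% and the share that rose was 9.8%. The median log2 fold change was -0.95 over the positive reactants and 0.13 over the negative ones, beside -0.024 over all genes tested. With Itih1, Itih2 and Ambp counted as negative reactants, the second median was -0.18. The difference between the classes is given as a description and was not tested.

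Summed over a library, the positive reactants took 12.3, 11.4 and 8.85% of all counts in WT 1, WT 2 and WT 3, and 5.37, 5.35 and 4.87% in KO 1, KO 2 and KO 3. All 3 knockout shares lay below all 3 wild-type shares. The negative reactants took 8.92, 5.99 and 6.48% in the wild-type and 7.37, 7.59 and 6.63% in the knockout libraries, and there the groups overlapped. Counts of positive reactants exceeded those of negative ones in each wild-type library, with ratios of 1.38, 1.90 and 1.37, and were fewer in each knockout library, with ratios of 0.728, 0.705 and 0.734. The mitochondrially encoded share of each library also differed, at 7.52 ± 0.924% in wild-type and 10.9 ± 0.809% in knockout libraries (SD, n = 3 each), and its part in these differences was not tested. With mitochondrial and hemoglobin genes removed, 15 members fell and 2 rose.

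**Figure D1:**
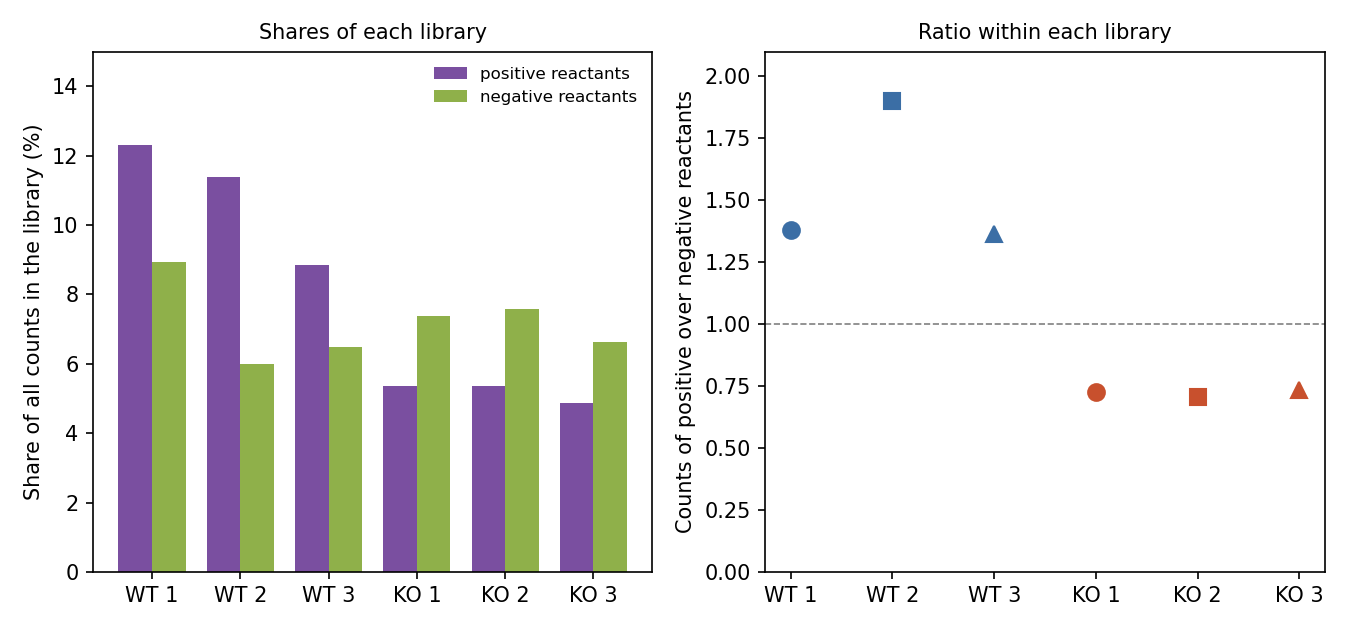
Left, bars give the percentage of all counts in each library that came from the 24 positive (purple) and 5 negative (green) reactants. Right, points give the ratio of the same counts within each library, with a dashed line at 1. The wild-type ratios lie between 1.37 and 1.90, and the knockout ratios between 0.705 and 0.734.

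Over all 34 genes, 16 fell and 2 rose. The falls ranged from 1.58-fold for Fgb to 4.71-fold for Saa3, and 12 of the 16 were larger than 2-fold. For 19 members every knockout library lay below every wild-type library, and for 3 every knockout library lay above. Over all genes tested these shares were 22% and 18.7%. The number of members that fell depended on single libraries. It was 5 without KO 1, 11 without KO 2 and 10 without KO 3, against 13, 12 and 18 without WT 1, WT 2 and WT 3. The number called over all genes tested, 2871 with every library kept, also changed with the library left out. Its range is given in the last section, and a call lost in this way is not read as particular to these members. Saa1, Saa2, Apcs, Lbp and Fgl1 were the members that still fell without KO 1, and they fell under each of the 17 alternative settings run at the same threshold, leave-outs included.

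**Figure D2:**
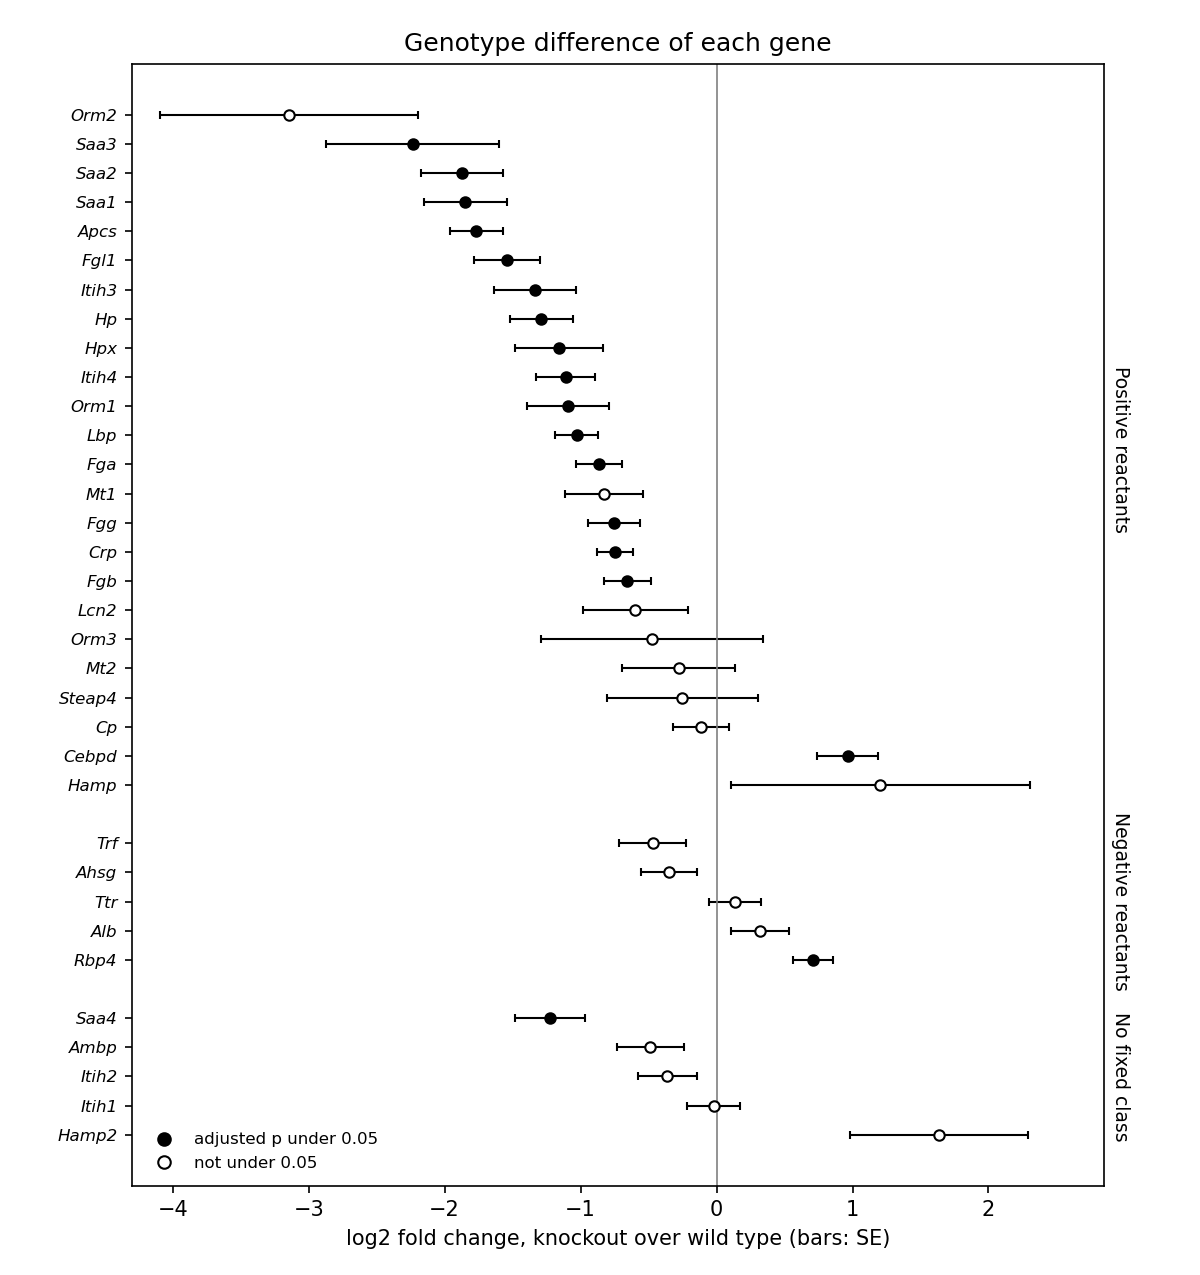
Points give the log2 fold change of each gene, knockout over wild type, with its SE, grouped by class. Filled points have an adjusted p under 0.05. Of the positive reactants 15 lie to the left with filled points, and Rbp4 is the single filled point among the negative reactants.

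Serum amyloid A proteins are small apolipoproteins that ride on high-density lipoprotein, and Saa1 and Saa2 are the forms made in bulk by hepatocytes in an acute-phase response. Saa1 stood at 7530.0, 5354 and 3486 CPM in WT 1, WT 2 and WT 3 and at 1559.8, 1837 and 1146 CPM in KO 1, KO 2 and KO 3. The lowest wild-type value was 1.90 times the highest knockout value, so the groups were well apart. Saa1 fell (log2 fold change -1.85 ± 0.31, adjusted p = 0.00843). Saa2 went from 10024, 7700.1 and 4581 CPM in wild type to 2167, 2346 and 1570.3 CPM in knockout and fell by nearly the same amount (log2 fold change -1.87 ± 0.30, adjusted p = 0.00792). In both genes WT 1 was highest and WT 3 lowest of the wild type. The ratio of Saa2 to Saa1 stayed between 1.28 and 1.44 over the 6 libraries. Their principal transcripts are 87.3% identical in an alignment over their full lengths, so the split of reads between the pair rests on the estimation model.

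The 2 genes lie in one cluster on chromosome 7, Saa1 at chr7:46740497-46742980 and Saa2 at chr7:46751790-46754313 in GRCm38, and their promoter windows, 95.3% identical, are shown because both transcripts fell by similar amounts. Each window runs from 250 bases before to 50 after the RefSeq start, 5′ to 3′, from RefSeq's GRCm38.p6 tables. Capitals mark the letters TTGCNNAA, a C/EBP-type motif searched on both strands.
Saa1, chr7:46742931-46743230 (minus strand): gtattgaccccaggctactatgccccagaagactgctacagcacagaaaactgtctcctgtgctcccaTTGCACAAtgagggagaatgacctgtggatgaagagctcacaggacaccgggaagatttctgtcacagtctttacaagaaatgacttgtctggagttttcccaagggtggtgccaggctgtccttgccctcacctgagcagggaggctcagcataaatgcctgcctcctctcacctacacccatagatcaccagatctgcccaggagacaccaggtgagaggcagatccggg
Saa2, chr7:46751583-46751882 (plus strand): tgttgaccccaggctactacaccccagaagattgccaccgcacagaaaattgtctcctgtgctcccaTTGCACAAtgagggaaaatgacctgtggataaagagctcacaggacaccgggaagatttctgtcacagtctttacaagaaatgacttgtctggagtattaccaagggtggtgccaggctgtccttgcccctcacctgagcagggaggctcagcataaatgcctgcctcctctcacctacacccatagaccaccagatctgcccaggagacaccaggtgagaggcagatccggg
The match began 182 bases before the start in Saa1 and 183 bases before it in Saa2. Of the 27 members with a listed promoter, 15 held this motif, as did 10.8% of 32851 promoter windows of the same length. Orm1, Hp, Lbp, Cebpd, Fgl1, Ttr and Trf had no entry.

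Saa3 and Saa4, the other 2 genes of the cluster, also fell. Saa3, which macrophages and fat cells make as well as hepatocytes, stood at 102, 197 and 25.6 CPM in wild type and 20.3, 23.7 and 24.8 CPM in knockout. WT 3 all but touched the knockout libraries, and the wild-type values differed 7.67-fold among themselves. Its adjusted p was just inside the threshold (log2 fold change -2.24 ± 0.64, adjusted p = 0.0497). Leaving out any library but WT 3 ended the call, as did several other settings (adjusted p up to 0.194), and without WT 2 the log2 fold change was -1.47. Saa4, a constitutive form, stood at 395, 534 and 670.4 CPM in wild type and 222, 294 and 169 CPM in knockout (log2 fold change -1.22 ± 0.26, adjusted p = 0.0166). It was the 1 member of the cluster with its highest wild-type value in WT 3, and its call was lost without KO 1 (adjusted p = 0.0748).

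Orosomucoids, or alpha-1-acid glycoproteins, are abundant plasma lipocalins that bind drugs and lipids. Orm1, the most abundant of the 3, stood at 4651, 3506 and 2199 CPM in wild type and 1659, 2015 and 1186 CPM in knockout, and fell (log2 fold change -1.09 ± 0.30, adjusted p = 0.0398). WT 3 was only 1.09 times the highest knockout library, and leaving out any library but WT 3 ended the call (adjusted p up to 0.128). Orm2 was far from even in wild type, at 1345, 109 and 175 CPM, against 59.4, 76.1 and 49.1 CPM in knockout. All knockout libraries lay below all wild-type libraries, but the value rested on WT 1, and Orm2 did not pass (log2 fold change -3.14 ± 0.95, adjusted p = 0.0587). Without WT 1 its log2 fold change was -1.21 (adjusted p = 0.0317), which passed, as it did with DESeq2 (adjusted p = 0.0200). Orm2 also passed without WT 2, with a filter of at least 50 counts and without robust estimation, which made 5 of the 17 alternative settings. Orm3 also had its highest value in WT 1, at 16.6, 1.90 and 2.61 CPM in wild type and 5.17, 7.15 and 2.88 CPM in knockout, with overlapping groups (log2 fold change -0.48 ± 0.82, adjusted p = 0.718). Without WT 1 the log2 fold change of Orm3 turned positive, at 1.16. The transcripts of Orm1 and Orm2 are 91.0% identical and those of Orm1 and Orm3 86.1%, so reads may be misassigned among them.

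Lcn2, a lipocalin that withholds siderophore-bound iron from bacteria and is made by both hepatocytes and neutrophils, did not pass. Its values were 1197, 1874 and 577 CPM in wild type and 883, 887 and 642 CPM in knockout (log2 fold change -0.60 ± 0.39, adjusted p = 0.311). WT 2 was the highest and WT 3 the lowest of all 6 libraries, so the wild type spanned the knockout values. Without WT 3, Lcn2 passed with a log2 fold change of -0.94 (adjusted p = 0.0430).

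Haptoglobin captures free hemoglobin and hemopexin captures free heme, and both fell. Hp stood at 15818, 12941 and 10243 CPM in wild type and 5291, 6427 and 4243 CPM in knockout (log2 fold change -1.29 ± 0.23, adjusted p = 0.0104). The groups were 1.59-fold apart at their nearest libraries. Hpx stood at 18593, 12454 and 7692 CPM in wild type and 5768, 7000.1 and 4582 CPM in knockout (log2 fold change -1.16 ± 0.32, adjusted p = 0.0402). Here WT 3 came within 1.1-fold of the highest knockout library. The ratio of Hpx to Hp was nearly constant in knockout, at 1.09, 1.09 and 1.08, and ranged more widely in wild type, at 1.18, 0.962 and 0.751. Hp did not pass without KO 1 (adjusted p = 0.0592), and Hpx passed only with every library kept or with WT 3 left out (adjusted p up to 0.134 without another).

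Pentraxins are ring-shaped pattern recognition proteins, and in mice serum amyloid P component, encoded by Apcs, is the main acute-phase form. Apcs stood at 1153, 1003 and 741 CPM in WT 1, WT 2 and WT 3 and at 268, 261 and 322 CPM in KO 1, KO 2 and KO 3. It was among the members set furthest apart, with the lowest wild-type value 2.3 times the highest knockout value (log2 fold change -1.77 ± 0.20, adjusted p = 0.00263). That adjusted p was the lowest of the 34 members. Crp, C-reactive protein, which is a minor reactant in mice, stood at 781, 742 and 695 CPM in wild type and 451, 412 and 461 CPM in knockout. Its fall was smaller (log2 fold change -0.74 ± 0.13, adjusted p = 0.0103), with the least spread within wild type of all positive reactants, and was lost without KO 1 (adjusted p = 0.0673). Lbp, the carrier of bacterial lipopolysaccharide, stood at 159.6, 206 and 149.8 CPM in wild type and 88.7, 90.3 and 73.8 CPM in knockout, with no overlap, and fell (log2 fold change -1.03 ± 0.16, adjusted p = 0.00676). The promoter window of Apcs is shown because this gene had the lowest adjusted p. Capitals mark TTCNNNGAA, a STAT-type motif, and CTGGGAA, an interleukin-6 response motif, both searched on either strand.
Apcs, chr1:172895005-172895304 (minus strand): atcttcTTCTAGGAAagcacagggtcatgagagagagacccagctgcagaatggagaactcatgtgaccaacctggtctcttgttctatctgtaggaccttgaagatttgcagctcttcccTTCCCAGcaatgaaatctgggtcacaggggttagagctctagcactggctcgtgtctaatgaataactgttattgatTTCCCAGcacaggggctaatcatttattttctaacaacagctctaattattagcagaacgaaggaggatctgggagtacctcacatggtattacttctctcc
Of the 27 promoter windows, 7 held TTCNNNGAA and 5 held CTGGGAA, beside 8.30% and 11.1% of all windows. A kappa-B motif was found in 1, that of Steap4, beside 8.46% of all windows. No match of one motif overlapped a match of another in the members' windows.

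Fibrinogen, the precursor of the fibrin clot, is assembled from 3 chains whose genes lie side by side on chromosome 3 (Fgg at chr3:83007724-83015049, Fga at chr3:83026076-83033627, Fgb at chr3:83040141-83049863). All 3 fell, each by less than 2-fold. Fga stood at 14628, 18172 and 14604 CPM in wild type and 9149.8, 8664 and 8208 CPM in knockout (log2 fold change -0.87 ± 0.17, adjusted p = 0.0137). For Fgb the values were 14571, 17783 and 14070.0 CPM in wild type and 10577, 10044 and 8854 CPM in knockout (log2 fold change -0.66 ± 0.17, adjusted p = 0.0346), and for Fgg they were 10898, 14132 and 9721 CPM and 7249, 6969 and 6375 CPM (log2 fold change -0.75 ± 0.19, adjusted p = 0.0286). WT 2 was highest for each chain, and no knockout library reached a wild-type one. The ratio of Fga to Fgb was 1.0, 1.02 and 1.04 in wild type and 0.865, 0.863 and 0.927 in knockout (exact permutation p = 0.1, two-sided, the smallest that 3 against 3 allows, and 0.2 adjusted over the 12 ratios computed). Leaving out KO 1 ended the call of all 3 (adjusted p up to 0.132). Fgg was also lost without WT 2, KO 2 or KO 3, and Fgb when any library but WT 3 was left out. The window of Fgb is shown because it holds 3 of the motifs, with TTCNNNGAA, CTGGGAA and TTGCNNAA in capitals, in that order.
Fgb, chr3:83049814-83050113 (minus strand): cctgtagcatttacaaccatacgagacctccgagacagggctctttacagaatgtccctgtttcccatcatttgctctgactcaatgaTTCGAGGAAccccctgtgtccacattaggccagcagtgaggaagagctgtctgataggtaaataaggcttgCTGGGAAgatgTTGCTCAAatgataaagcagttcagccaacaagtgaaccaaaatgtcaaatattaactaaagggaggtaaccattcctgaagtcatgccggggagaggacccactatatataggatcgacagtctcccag

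The inter-alpha-trypsin inhibitor heavy chains stabilise the hyaluronan matrix, and Ambp encodes bikunin, the light chain they are joined to. Itih3 and Itih4, the acute-phase chains, fell. Itih3 stood at 4291, 2386 and 2037 CPM in wild type and 1176, 1368 and 907 CPM in knockout (log2 fold change -1.34 ± 0.30, adjusted p = 0.0213), and Itih4 at 7519.8, 6758 and 4453 CPM and 3011, 2591 and 3074 CPM (log2 fold change -1.11 ± 0.22, adjusted p = 0.0140). Itih1 lies next to them on chromosome 14, at chr14:30929180-30943289, and its groups overlapped, with 700.3, 506 and 482 CPM in wild type and 560.0, 643 and 459.8 CPM in knockout (log2 fold change -0.022 ± 0.20, adjusted p = 0.950). Within each library the ratio of Itih3 to Itih1 was 6.13, 4.72 and 4.22 in wild type and 2.1, 2.13 and 1.97 in knockout, and that of Itih4 to Itih1 was 10.7, 13.4 and 9.23 and 5.38, 4.03 and 6.69. Neither ratio overlapped between the groups (exact permutation p = 0.1 for each, two-sided, 0.2 adjusted over the 12 ratios). Itih2 and Ambp did not pass, with log2 fold changes of -0.36 ± 0.22 (adjusted p = 0.270) and -0.49 ± 0.24 (adjusted p = 0.191). Without KO 1, neither Itih3 (adjusted p = 0.0835) nor Itih4 (0.0677) passed, and Itih3 was also lost without KO 3.

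Fgl1, which encodes the liver-secreted hepassocin, was among the genes that fell most. Its values were 1836, 1190.5 and 1367 CPM in wild type and 499.9, 632 and 378 CPM in knockout, 1.88-fold apart at the nearest libraries (log2 fold change -1.54 ± 0.24, adjusted p = 0.00683).

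Cebpd encodes C/EBP-delta, a transcription factor that activates acute-phase promoters, and it went the opposite way to most of the genes above. It stood at 18.1, 29.3 and 15.4 CPM in wild type and 42.0, 38.1 and 42.8 CPM in knockout, with every knockout library above every wild-type library (log2 fold change 0.97 ± 0.23, adjusted p = 0.0240). WT 2 was the wild-type library nearest to the knockout values. Its call was lost without WT 1 or any of the knockout libraries (adjusted p up to 0.0919).

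Hamp encodes hepcidin, the hormone that closes the iron exporter ferroportin, and Hamp2 is a second copy found in mice. Hamp was the least even gene of the set within wild type. It stood at 20.1, 345 and 19.5 CPM in WT 1, WT 2 and WT 3 and at 302, 409.9 and 174 CPM in KO 1, KO 2 and KO 3. WT 1 and WT 3 lay far below the knockout libraries, WT 2 lay among them, and Hamp did not pass (log2 fold change 1.21 ± 1.1, adjusted p = 0.474). Without WT 2 its log2 fold change was 3.90 (adjusted p = 0.00332). Hamp2 was also uneven, 9.90-fold within wild type against 17.7-fold for Hamp, with 202, 311 and 29 counts in wild type and 617, 480 and 810 in knockout. As CPM these were 5.57, 7.97 and 0.805 in wild type and 15.7, 12.0 and 17.0 in knockout. All knockout values lay above all wild-type values, and Hamp2 did not pass (log2 fold change 1.64 ± 0.65, adjusted p = 0.121), though it did without WT 3 (adjusted p = 0.0213) and with limma voom (adjusted p = 0.0488). The 2 transcripts are 88.8% identical. Their promoter windows, 91.1% identical, are shown because Hamp answers both to STAT3 and to bone morphogenetic proteins. Capitals mark TTCNNNGAA and GGCGCC, a bone morphogenetic protein response motif searched on both strands.
Hamp, chr7:30943980-30944279 (minus strand): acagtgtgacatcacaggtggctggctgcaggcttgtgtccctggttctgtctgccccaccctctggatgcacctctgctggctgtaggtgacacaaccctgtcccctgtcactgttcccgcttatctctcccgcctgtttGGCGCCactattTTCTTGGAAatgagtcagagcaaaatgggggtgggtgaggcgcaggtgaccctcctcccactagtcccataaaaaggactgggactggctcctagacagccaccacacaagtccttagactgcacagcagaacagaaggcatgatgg
Hamp2, chr7:30924132-30924431 (minus strand): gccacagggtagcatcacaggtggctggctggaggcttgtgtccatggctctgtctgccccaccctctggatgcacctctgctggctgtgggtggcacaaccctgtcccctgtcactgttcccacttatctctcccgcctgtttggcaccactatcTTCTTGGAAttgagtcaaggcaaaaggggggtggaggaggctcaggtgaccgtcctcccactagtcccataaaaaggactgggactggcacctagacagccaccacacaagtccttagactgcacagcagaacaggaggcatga
TTCNNNGAA was found in both windows, and GGCGCC in that of Hamp, which was the only member's window with those letters, beside 11.9% of all windows. The RefSeq start of Hamp2 lies 500 bases from the start of the GENCODE gene.

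Other iron and copper genes did not pass. Cp, the copper ferroxidase ceruloplasmin, stood at 1646, 1232 and 983 CPM in wild type and 1238, 1062 and 1271 CPM in knockout, inside the wild-type range (log2 fold change -0.11 ± 0.21, adjusted p = 0.733). Steap4, a membrane metalloreductase, stood at 1647, 2845 and 533 CPM in wild type and 1325, 955 and 1942 CPM in knockout (log2 fold change -0.25 ± 0.56, adjusted p = 0.785). WT 2 was the highest and WT 3 the lowest of all 6 libraries for Steap4. Its direction turned without WT 2 (log2 fold change 0.37), and that of Cp without WT 1 (0.099).

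Metallothioneins are small cysteine-rich proteins that bind zinc and copper. Mt1 stood at 1892, 2818 and 1304 CPM in wild type and 1260.0, 1237 and 888 CPM in knockout. The groups just failed to touch, WT 3 being 1.03 times the highest knockout library, and Mt1 did not pass (log2 fold change -0.83 ± 0.29, adjusted p = 0.0758). It passed with library totals alone (adjusted p = 0.0376), with DESeq2 (adjusted p = 0.0218) and without WT 3 (adjusted p = 0.0297). Mt2 stood at 1888, 2810.5 and 816 CPM in wild type and 1659, 1749 and 1134 CPM in knockout, with WT 2 highest and WT 3 lowest of the 6 (log2 fold change -0.28 ± 0.41, adjusted p = 0.667). Its direction turned without WT 2, to 0.16. The ratio of Mt2 to Mt1 was 0.998, 0.997 and 0.626 in wild type and 1.32, 1.41 and 1.28 in knockout, without overlap (exact permutation p = 0.1, two-sided, 0.2 adjusted over the 12 ratios). Both promoter windows are shown because the pair is known for repeated metal response elements, and the 2 windows are only 45.5% identical. Capitals mark TGCACNC or TGCGCNC, the core of that element on either strand, and in Mt2 also 1 match to TTGCNNAA.
Mt1, chr8:94178839-94179138 (plus strand): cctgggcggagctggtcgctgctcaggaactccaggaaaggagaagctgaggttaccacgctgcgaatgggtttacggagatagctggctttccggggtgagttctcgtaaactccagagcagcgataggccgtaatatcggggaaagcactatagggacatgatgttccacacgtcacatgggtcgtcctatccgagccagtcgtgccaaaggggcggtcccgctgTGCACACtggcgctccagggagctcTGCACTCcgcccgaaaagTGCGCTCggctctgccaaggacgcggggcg
Mt2, chr8:94172368-94172667 (plus strand): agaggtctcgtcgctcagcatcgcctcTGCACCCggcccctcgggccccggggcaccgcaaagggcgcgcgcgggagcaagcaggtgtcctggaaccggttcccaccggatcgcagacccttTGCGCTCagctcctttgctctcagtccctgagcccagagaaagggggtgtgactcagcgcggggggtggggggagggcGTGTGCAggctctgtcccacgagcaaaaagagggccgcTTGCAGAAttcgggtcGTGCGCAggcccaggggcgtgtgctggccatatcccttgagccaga
The core was found 3 times in the window of Mt1 and 4 times in that of Mt2. Of the 27 members' windows 7 held at least 1 match, beside 25.7% of all windows.

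Among negative reactants, Rbp4, the plasma carrier of retinol, rose. It stood at 1354, 1300.5 and 1416 CPM in wild type and 2166, 2476 and 2004 CPM in knockout, with 1.42-fold between the nearest libraries (log2 fold change 0.71 ± 0.15, adjusted p = 0.0168). The 3 wild-type values lay within 1.09-fold of each other, the narrowest wild-type range of the 34 members. Leaving out either KO 1 or KO 2 ended its call (adjusted p at most 0.0843). Alb, the most abundant transcript of the set, stood at 49635, 35026 and 34244 CPM in wild type and 51426, 53964 and 42745 CPM in knockout (log2 fold change 0.32 ± 0.21, adjusted p = 0.323). WT 1 lay among the knockout libraries, and WT 2 and WT 3 below them.

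Ttr, transthyretin, the plasma carrier of thyroxine and of the retinol-binding protein, stood at 4386, 3619.7 and 3341 CPM in wild type and 4142, 4865 and 3448 CPM in knockout (log2 fold change 0.13 ± 0.19, adjusted p = 0.649). The ratio of Rbp4 to Ttr was 0.309, 0.359 and 0.424 in wild type and 0.523, 0.509 and 0.581 in knockout, without overlap (exact permutation p = 0.1, two-sided, 0.2 adjusted over the 12 ratios). Trf, the iron carrier transferrin, stood at 25772, 15663 and 14012 CPM in wild type and 13559, 13808 and 12661 CPM in knockout (log2 fold change -0.47 ± 0.25, adjusted p = 0.210). Its lowest wild-type library, WT 3, was 1.01 times its highest knockout library, and WT 1 stood well above the rest. Ahsg, which encodes fetuin-A, an inhibitor of calcification, stood at 7546, 5697 and 5932 CPM in wild type and 5259, 5881 and 3932 CPM in knockout, with overlapping groups (log2 fold change -0.35 ± 0.21, adjusted p = 0.264). The ratio of Alb to Trf was 1.93, 2.24 and 2.44 in wild type and 3.79, 3.91 and 3.38 in knockout, without overlap (exact permutation p = 0.1, two-sided, 0.2 adjusted over the 12 ratios). Of the 12 ratios, those of Saa2 to Saa1, Saa3 to Saa1, Orm2 to Orm1, Hpx to Hp, Fgg to Fgb and Hamp to Hamp2 overlapped between the groups. Any ratio without overlap gives an exact permutation p of 0.1 here. The ratios were also chosen after the levels were seen, so these p-values add nothing to the values themselves.

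Levels of different genes were compared per kilobase of their principal transcript. In wild type, Alb came first at 19486 ± 4262 CPM per kilobase (SD, n = 3), followed by Saa2 at 11404 ± 4189, Hp at 9666 ± 2073, Saa1 at 8960.3 ± 3323 and Hpx at 8614 ± 3646. Within wild type the last 4 lay within their spread. In knockout, Alb came first at 24276 ± 2892 CPM per kilobase, followed by Trf at 5189.7 ± 235, Fgg at 4049.9 ± 263, Hp at 3956 ± 812 and Hpx at 3858 ± 807, and Saa2 stood at 3109.9 ± 623. The lowest levels in wild type were those of Cebpd (5.60 ± 1.96), Orm3 (9.11 ± 10.7) and Hamp2 (10.9 ± 8.34).

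**Figure D3:**
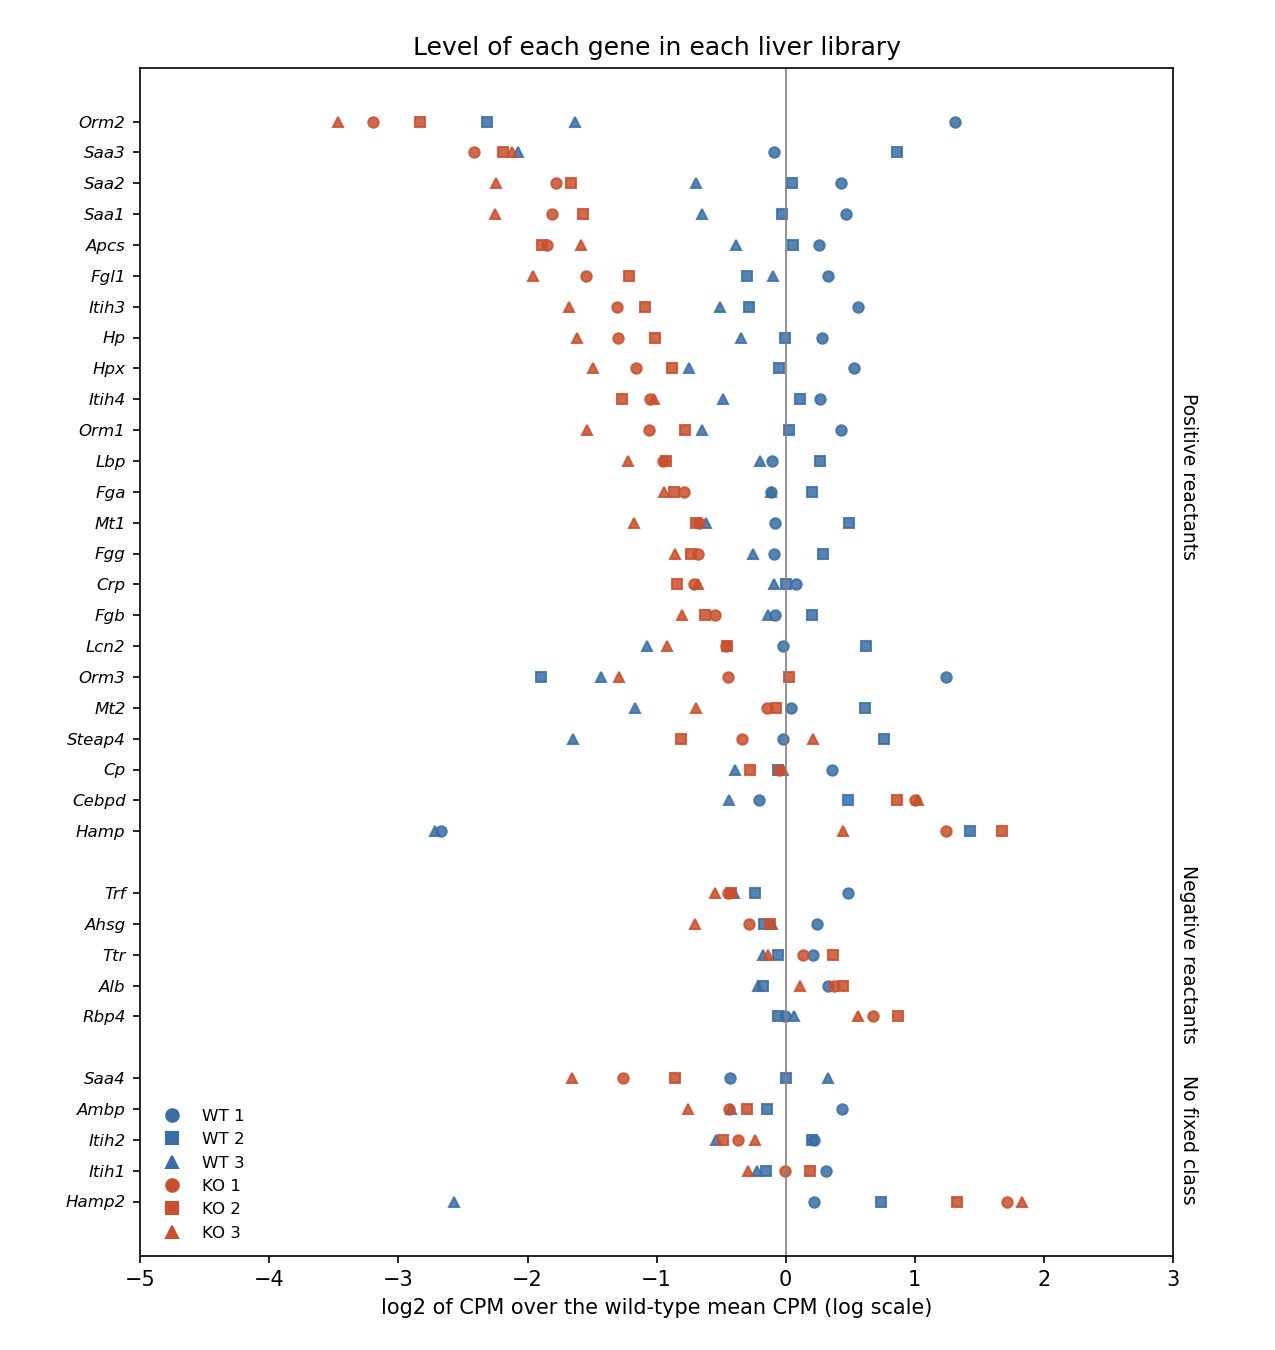
Each row is a gene and each point 1 library, as the log2 of its CPM over the gene's wild-type mean CPM. Blue is wild type, orange knockout, and circle, square and triangle are replicates 1, 2 and 3. The blue triangle (WT 3) is the lowest wild-type point for 28 of 34 genes.

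The wild-type libraries differed widely among themselves in these genes. The highest wild-type value was over 2 times the lowest for 14 of the 34 members, against 3 (Orm3, Steap4 and Hamp) within knockout. Over all genes tested these shares were 18.5% and 11.1%. Of the 14, 13 were positive reactants and the other was Hamp2. The median SD of log2 CPM over the positive reactants was 0.551 in wild type and 0.292 in knockout, and over the negative reactants 0.219 and 0.177. Over all genes tested it was 0.233 and 0.180. The SD was larger in wild type for 28 of 34 members (82.4%), and for 61.6% of all genes tested. The members' SD was taken from log2 of CPM plus 0.5, and that of all genes from edgeR's log2 CPM, which uses another offset. The SD values of members and of all genes are therefore not on quite the same scale. With 3 libraries a group, no test of the spread was made.

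**Figure D4:**
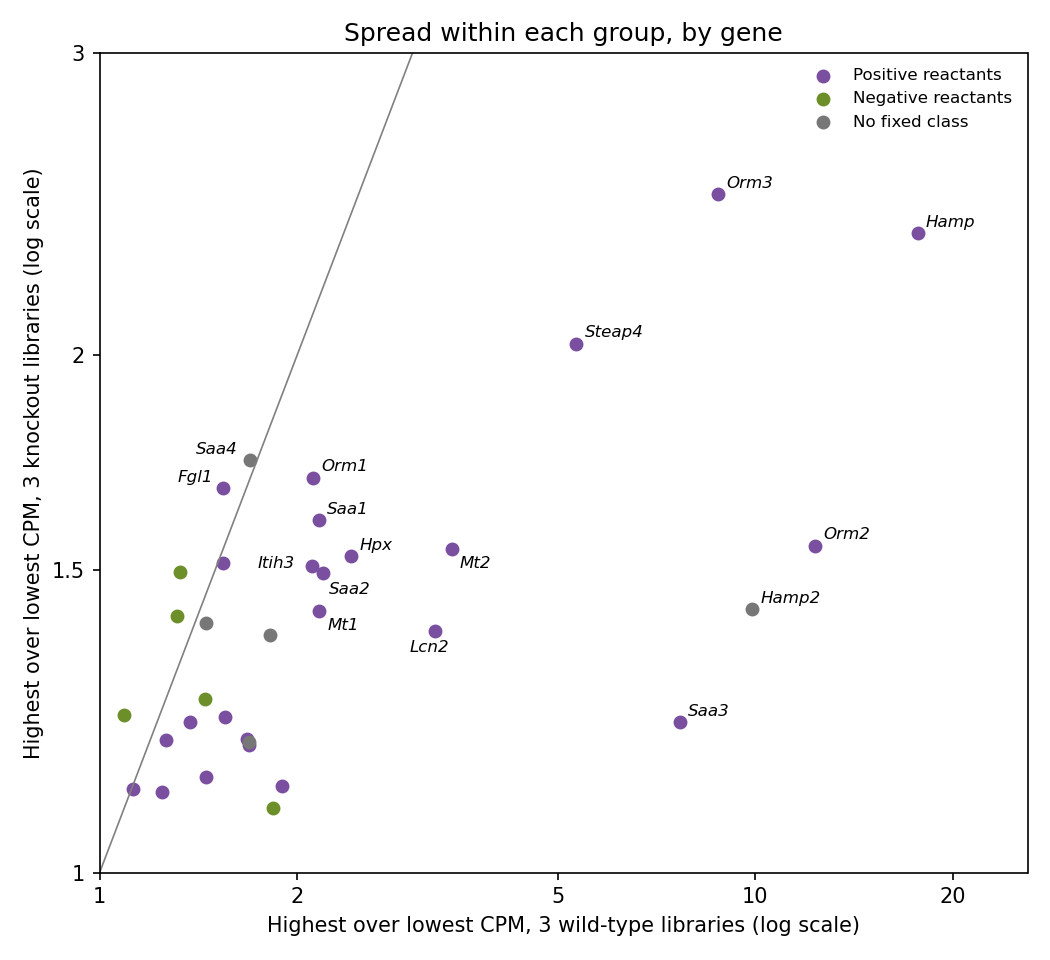
Each point is a gene, placed by its highest over lowest CPM among the 3 wild-type libraries (horizontal, log scale) and among the 3 knockout libraries (vertical, log scale), with a line where both are equal. Hamp (17.7-fold), Orm2 (12.3-fold), Hamp2 (9.90-fold), Orm3 (8.76-fold) and Saa3 (7.67-fold) lie furthest right.

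WT 3 was the lowest wild-type library for 28 of the 34 members, beside 32.2% of all genes tested, and the highest for 2, Rbp4 and Saa4, beside 34.7%. For the 16 members that fell, every knockout library lay below every wild-type one. The wild-type library nearest to the knockout mean was therefore the lowest one, and it was WT 3 for 14 of them. The other 2 wild-type libraries divided the positive reactants between them. WT 1 was highest for 13 (Saa1, Saa2, the 3 orosomucoids, Hp, Hpx, Crp, Apcs, Itih3, Itih4, Cp and Fgl1), and WT 2 for 11 (Saa3, Lcn2, the 3 fibrinogen chains, Steap4, Lbp, Hamp, Cebpd, Mt1 and Mt2). The plot of uneven genes shows the contrast, with Orm2 at 1345 CPM in WT 1 and 109 CPM in WT 2, and Hamp at 20.1 CPM in WT 1 and 345 CPM in WT 2.

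**Figure D5:**
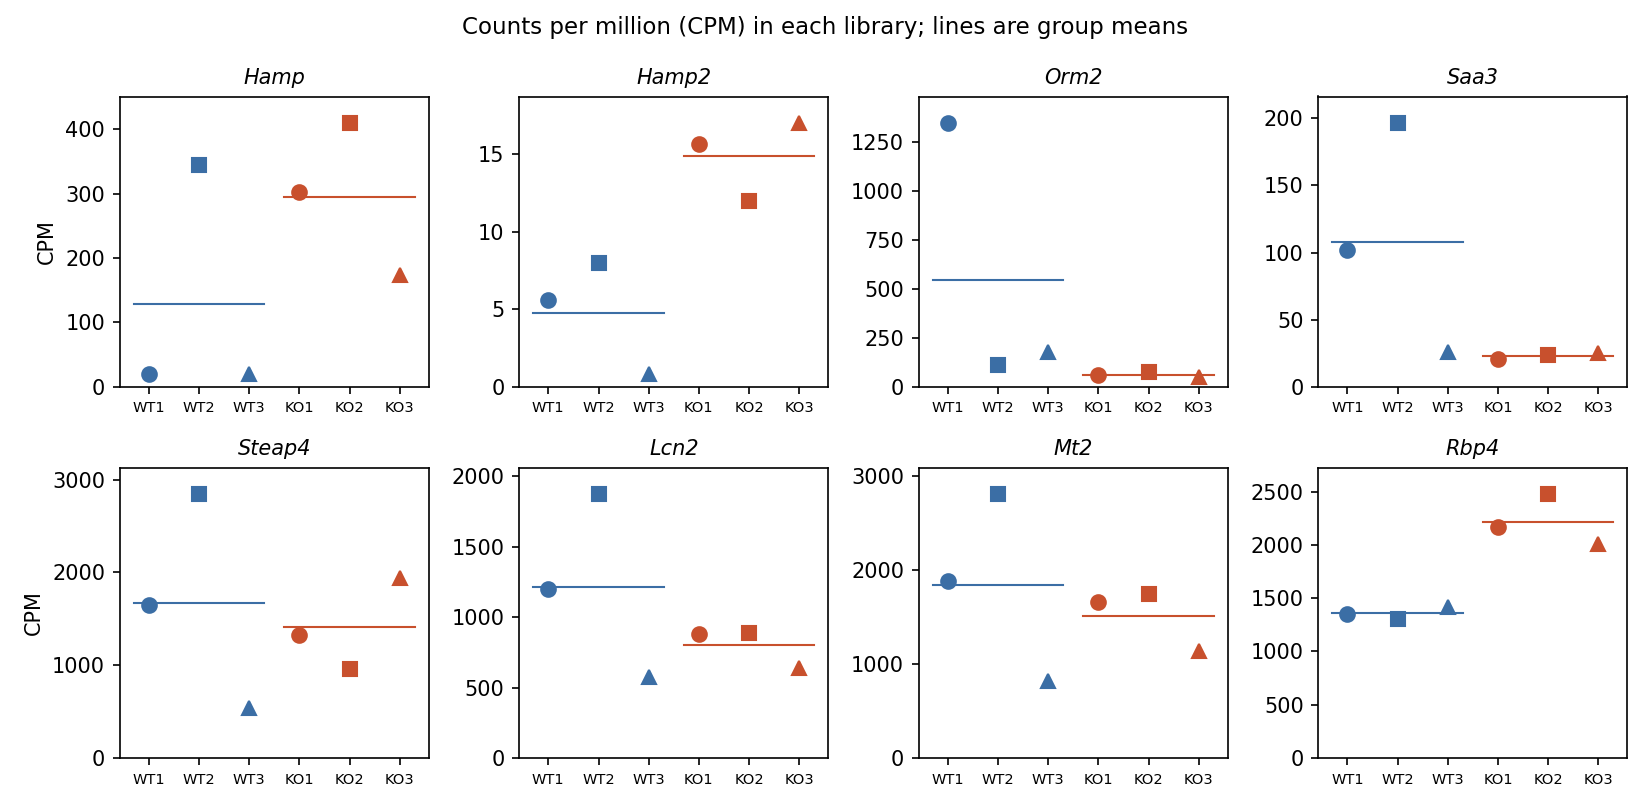
CPM of 8 genes in each of the 6 libraries, with lines at the group means. Hamp is high in WT 2 and Orm2 in WT 1, Saa3, Steap4, Lcn2 and Mt2 have their highest wild-type value in WT 2 and their lowest in WT 3, and Rbp4 is the 1 gene shown with an even wild-type level.

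Genes that drive the acute-phase response were read from a list of 33 cytokines, receptors, kinases, transcription factors and feedback inhibitors, of which 32 were tested. 8 rose and 3 fell, beside 9.8% and 10.6% of all genes tested, and the median log2 fold change was 0.34. Among the genes with the lowest p were the NF-kappa-B feedback genes Nfkbiz (log2 fold change 2.08 ± 0.16, adjusted p = 8.31e-04) and Nfkbia (log2 fold change 1.55 ± 0.15, adjusted p = 0.00187), and the interleukin-6 family cytokine Lif (log2 fold change 3.29 ± 0.64, adjusted p = 0.0143), all of which rose. Il6 itself stood at 0.138, 0.128 and 0.0555 CPM in wild type and 0.916, 0.822 and 1.54 CPM in knockout, at the edge of detection (log2 fold change 3.31 ± 0.48, adjusted p = 0.00551). Among those that fell were the interleukin-22 receptor gene Il22ra1 (log2 fold change -1.64 ± 0.45, adjusted p = 0.0385) and the STAT3 inhibitor gene Pias3 (log2 fold change -1.27 ± 0.34, adjusted p = 0.0346). Stat3 did not pass (log2 fold change -0.13 ± 0.18, adjusted p = 0.623), and neither did its feedback inhibitor Socs3 (log2 fold change 0.80 ± 0.32, adjusted p = 0.116), the receptor subunit Il6st (log2 fold change -0.23 ± 0.22, adjusted p = 0.493) or the transcription factor gene Cebpb (log2 fold change 0.31 ± 0.22, adjusted p = 0.340).

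Of 23 genes that set hepcidin or handle iron, all tested, the receptor gene Acvr1 rose (log2 fold change 0.49 ± 0.14, adjusted p = 0.0415) and Neo1, which encodes a hemojuvelin partner, fell (log2 fold change -0.49 ± 0.13, adjusted p = 0.0382). The median log2 fold change of the 23 was -0.062, and of all genes tested 9.8% rose and 10.6% fell. Of 7 genes of zinc sensing and transport, Slc30a1, a zinc exporter, passed (log2 fold change 0.88 ± 0.24, adjusted p = 0.0390), with 40.8, 32.9 and 31.8 CPM in wild type and 68.7, 83.4 and 42.2 CPM in knockout. The zinc-sensing factor Mtf1 did not pass (log2 fold change -0.24 ± 0.14, adjusted p = 0.249).

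Markers of the cells that could hold these transcripts were read from the same libraries, and their part in the results above was not tested. Of 15 hepatocyte markers outside the set, 2 passed, both higher in knockout, among them the cytochrome gene Cyp2e1 (log2 fold change 0.96 ± 0.17, adjusted p = 0.0107), and the summed level was 32525 to 34694 CPM in the wild-type and 29501 to 38584 CPM in the knockout livers. Of 15 macrophage and Kupffer cell markers, 7 passed, all lower, beside 10.6% of all genes tested that fell. The sum over the 15 was 171 to 379 CPM in wild type against 124 to 154 CPM in knockout. The 7 were Siglec1, Clec4f, Cd5l, Csf1r, C1qa, Vsig4 and C1qb. Ccr2 did not pass, but every knockout library lay above every wild-type library (log2 fold change 1.12 ± 0.43, adjusted p = 0.108). Ly6c2, Lyz2 and Cd68 did not pass either, with log2 fold changes of 0.77, 0.19 and 0.075. The other markers that did not pass had negative log2 fold changes. Of 15 neutrophil markers 11 were tested, and 1 passed, Lrg1 (log2 fold change -0.99 ± 0.17, adjusted p = 0.00979), which hepatocytes also secrete in an acute phase. Without Lrg1 the neutrophil sum was 21.9 to 138 CPM in wild type against 91.7 to 122 CPM in knockout, and S100a9 stood at 49.0, 16.3 and 6.72 CPM in WT 1, WT 2 and WT 3 and 33.7, 47.9 and 42.5 CPM in the knockout libraries. Within wild type, S100a9 and Orm2 were highest in WT 1, and Lcn2 and Saa3 in WT 2. S100a9, Lcn2 and Saa3 were lowest in WT 3, and Orm2 in WT 2.

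Of 10 mesothelial and fat cell markers 4 were tested, and Car3 passed (log2 fold change 1.45 ± 0.29, adjusted p = 0.0147), a gene that hepatocytes also express. Without Car3 their sum was at most 3.61 CPM in wild type against 5.87 CPM in knockout, and Lep had no count in any library. Of 8 red cell markers 7 were in the table and 6 tested, and 5 rose, the globins Hba-a1, Hba-a2, Hbb-bs and Hbb-bt and the heme synthesis gene Alas2, with a sum of 369 to 548 CPM in wild type against 1178 to 1547 CPM in knockout. Ahsp was not matched to the table.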

How the data were processed

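Poly(A) RNA of 6 liver samples was sequenced. Trim Galore, STAR, Salmon and the build GRCm38 appear, with no stated order, in the submitters' processing notes. The sources used here give no versions, settings or strand handling. What the authors deposited were unscaled expected counts for each gene, which can be fractions (8.38% to 9.32% of values in a library were not whole). Columns were tied to samples by their titles. Counts were rounded, filtered with filterByExpr and scaled by TMM, and genotype was tested with edgeR 4.0.16 (glmQLFit, robust, R 4.3.3), two-sided, over 14069 genes with a common dispersion of 0.0461. Each SE was taken as the absolute log2 fold change over the root of its F statistic. Symbols came from the gene name table, which matched 45143 of 45706 rows, and positions and principal transcript lengths from GENCODE M21 (GRCm38). Promoters came from RefSeq (GRCm38.p6), and sequences were aligned with Biopython 1.88.

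The members, classes and lists were chosen with earlier results of these data known. Every member was described, with values in each library where it passed, varied over 2-fold in wild type or was a negative reactant. From each other list at most 4 genes were named, those of lowest p whose mean log2 CPM was not under 0, plus all of a count of 5 or fewer. Il6, Stat3, Socs3, Il6st, Cebpb, Mtf1, S100a9 and the further macrophage genes were chosen after their values were seen. Some genes of these lists are not reported here. The 12 ratios were also chosen after the levels were seen. For 3 libraries against 3 the smallest two-sided exact permutation p is 0.1. The fit was tested on simulated counts for the genotype comparison (13672 genes), and recovered 73.4% of 3-fold changes and 4.17% of 1.5-fold changes. It also called 8 of 13482 unchanged genes. Between libraries of one group the variance was 34.5 to 138 times what counting alone gives, so none was taken for a duplicate. Alternatives were other scalings and filters, DESeq2 1.42.0, limma voom (3.58.1), a threshold of 0.1, a replicate block and leaving out each library.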

Additional observations from a re-analysis of the deposited data

How the results depend on the processing

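Across the other scalings, filters and tests, including the removal of mitochondrial and hemoglobin genes, which was added after the data were seen, 15 to 18 members fell and 2 to 3 rose, against 16 and 2. Leaving out 1 library at a time gave 5 to 18 members lower, 0 to 3 higher and 603 to 3080 genes called of all, against 2871. Over all alternatives the median log2 fold change ran from -1.09 to -0.85 for the positive reactants and from 0.0062 to 0.25 for the negative ones, which became -0.18 with Itih1, Itih2 and Ambp counted among them. With library totals alone, 1570 genes fell and 1036 rose, with upper-quartile scaling 1742 and 1187, and with TMM 1492 and 1379. Genes near a log2 fold change of 0 changed sign. Itih1 was at 0.0038 with RLE size factors and at 0.0038 with DESeq2, and Orm3 at 0.11 with limma voom. When 1 library was left out, Itih1 ran from -0.14 to 0.16, Orm3 from -0.93 to 1.16, Cp from -0.28 to 0.099, Steap4 from -0.68 to 0.37 and Mt2 from -0.64 to 0.16. The cause of these changes was not tested. With the replicate number as a block, 1468 genes were called, 13 members fell and 2 rose, Saa3, Fgb and Fgg did not pass, and Orm3 was at 0.086. Same-numbered libraries did not deviate together (correlations of deviations -0.085 to 0.013), so the numbers were not taken to pair the samples. Il6, at 0.0555 to 1.54 CPM over the libraries, rests on few counts.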
